A study of Mus musculus with 8 samples.

Results

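Blood and lymphatic endothelial cells line the vessels of the lamina propria of the colon, the connective tissue beneath its epithelium, and 2002 barcodes of these cells were found among 96721 single-cell barcodes from 8 mouse libraries. A barcode was taken as endothelial when it held at least 400 genes, under 20% mitochondrial UMIs (unique molecular identifiers, each standing for 1 captured transcript) and at least 4 UMIs summed over Cdh5, Pecam1, Kdr, Plvap and Flt1. It could hold at most 1 UMI over Cd3e, Cd3d and Cd3g, at most 2 of C1qa and at most 5 over Col1a1 and Dcn, which mark T cells, macrophages and fibroblasts. Barcodes with at least 3 UMIs over Prox1, Mmrn1 and Ccl21a were called lymphatic (538), and the rest blood endothelial (1464). These genes chose the members, so their levels are given as descriptions only, and nothing is read from them where they enter a fit over all genes.

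Blood endothelium controls what leaves the circulation: it holds coagulation in check, carries the adhesion molecules and chemokines that slow and stop leukocytes, and sprouts under vascular endothelial growth factor and Notch signals. Arteries, capillaries and veins differ in the genes they use, and leukocytes mostly leave through venules. Lymphatic endothelium drains fluid, lipids and migrating immune cells, depends on the transcription factor Prox1 and the receptor Flt4 (VEGFR3), and makes the chemokine Ccl21a that attracts dendritic cells and T cells.

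The mice were C57BL/6, 10 to 12 weeks old, kept specific-pathogen-free on a normal diet. Wildtype mice were compared with mice carrying a serine-to-alanine substitution in 1 protein, called mutant here. Untreated mice of both genotypes drank plain water for 10 days, and treated mice of both genotypes received 2% dextran sulfate sodium (DSS), an agent that damages gut epithelium, for 7 days followed by plain water for 3 days, with harvest on day 10. Each of the 4 groups held 2 libraries, which the series' design text calls independent biological replicates, and numbers 1 and 2 only name the libraries of a group. Lamina propria cells had been digested, passed over Percoll and put through a kit for CD4+ T cells, so endothelial barcodes are cells that came through a selection made for other cells. Only 2 to 8 of them per library were on the list of cells the authors kept. RNA levels do not show an amino acid substitution, and the genotype of a library rests on its label.

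The 8 libraries held 34497509 to 46960005 UMIs. UMIs summed over blood endothelial barcodes came to 884566 to 1452378 per untreated library and 384917 to 569310 per DSS library, and those of lymphatic barcodes ranged from 146412 to 1030772. Median UMIs per barcode were 3091.5 to 4473.5 in blood and 3721.5 to 5225 in lymphatic barcodes. Of all member barcode sequences, 1 occurred in more than 1 library over the 28 pairs of libraries. Levels below are CPM (UMI counts scaled to a common total for each library and class), with no correction for gene length, and because they are shares of the RNA a rise of some genes lowers the rest.

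The label held against the few markers named here, which the rule did not use. Egfl7, a secreted endothelial protein, had a mean of 587 CPM in blood and 621 CPM in lymphatic barcodes, against 0.9 CPM in fibroblast barcodes and 1.3 CPM in T cell barcodes. Mmrn2, Ptprb and Tie1 were likewise at no more than 1.03 CPM in those other classes. They were at 448, 897 and 215 CPM in blood barcodes and 615, 260 and 285 CPM in lymphatic barcodes. These genes are part of a longer pan-endothelial list and not its 4 highest members, since Emcn stood above Tie1 in both classes. How the other members stood in fibroblast and T cell barcodes is not given. Lyve1, the hyaluronan receptor of lymphatics, was found in 527 of the 538 lymphatic barcodes and in 1.5% of blood barcodes. All 5 selecting genes were present in 945 members and only 1 of them in 19. The selecting sum reached at least 8 in 1563 members (78.1%). It was exactly 4 in 149 members and 3 in 174 barcodes just outside. Just inside and just outside, Egfl7 was at 365 and 281 CPM, Esam, an endothelial adhesion molecule, at 83.6 and 67.9 CPM, Lyve1 at 2575 and 1782 CPM and the leukocyte gene Ptprc at 64.1 and 260 CPM, so the limit leaves out barcodes that also held vessel genes, lymphatic ones among them. On the lymphatic limit, 1 member had a sum of 3 and 9 blood barcodes had a sum of 2.

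**Figure D1:**
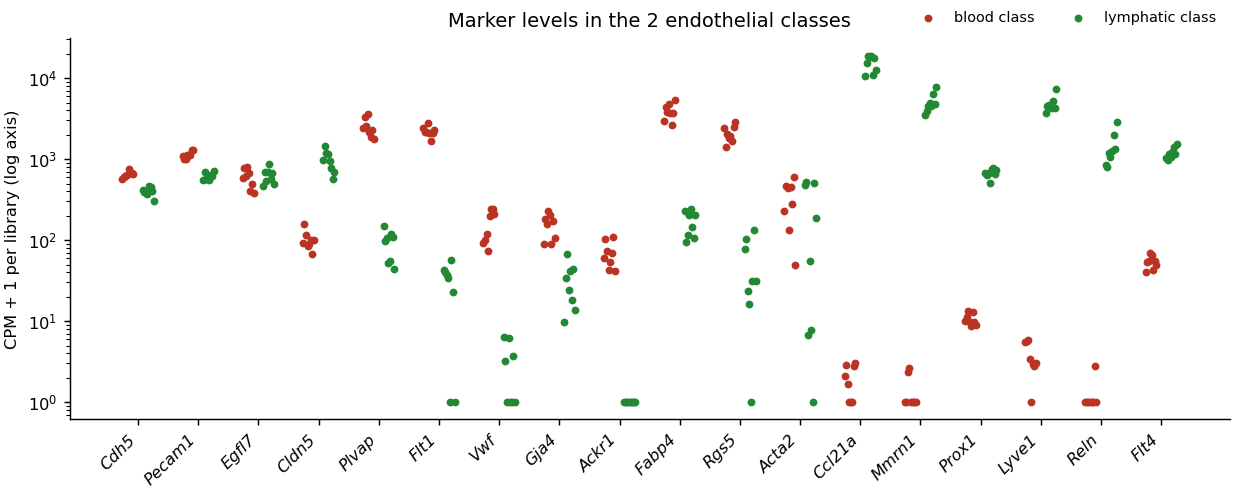
Levels of 18 marker genes in blood and lymphatic endothelial barcodes (CPM + 1, log axis), 1 point per library and class. Egfl7 (means of 587 and 621 CPM) is alike in both classes, Lyve1 and Reln are near 0 in blood, and Ackr1 is at 0 in lymphatic barcodes.

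Transcripts typical of other cells were common in the blood barcodes. Those with more than 2 UMIs over 12 genes of other lineages made up 60.6% to 81.5% of blood barcodes per library. Rgs5, Acta2, Pdgfrb, Notch3, Tagln and Myh11 are genes of pericytes and smooth muscle cells, which wrap small vessels. They summed to more than 2 UMIs in 925 of 1464 blood barcodes. This was 54.7% to 79.2% per library, against 0% to 6.45% of lymphatic barcodes, and the source of these UMIs was not tested. Squamous keratins (Krt5, Krt14, Krt6a, Krt15) gave more than 2 UMIs in 31 of the 120 blood barcodes of DSS wildtype 2 and in 0 or 1 of every other library. A cluster of 32 barcodes, nearly all of that library (96.9%), held Krt14 throughout. Of these, 29 held Pecam1, 28 Flt1, 22 Cdh5, 19 Plvap and 8 Kdr. The rule required UMIs of these 5 genes, so their presence does not show that the barcodes are vessel cells. Egfl7, which the rule did not use, was at 90.8 CPM in this cluster and at 322 to 1080 CPM in every other cluster. Ptprc was found in 3.56% to 12.4% of blood barcodes of untreated libraries and 8.64% to 18.3% of DSS libraries. Summed plasma cell genes ranged from 540 to 11517 CPM in blood and from 520 to 27550 CPM in lymphatic barcodes. Haemoglobin transcripts were in 82 blood barcodes (5.60%) and in 0 of 538 lymphatic barcodes, which allows a share of up to 0.558%, with median depths of 3699.5 and 4558 UMIs. T cell and fibroblast barcodes held them in at most 0.614% and 0.555% per library.

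Endothelial barcodes made up a smaller share of the cells after DSS. They were 2.00% and 2.66% of barcodes in untreated wildtype 1 and 2, 4.31% and 3.22% in untreated mutant 1 and 2, 1.04% and 1.22% in DSS wildtype 1 and 2, and 1.28% and 1.34% in DSS mutant 1 and 2. All 4 DSS libraries lay below all 4 untreated ones. The means were 1.22% ± 0.129 after DSS and 3.05% ± 0.978 without (SD, n = 4 libraries each), and the geometric mean was 2.41-fold lower; the 2-sided exact permutation p was 0.0286, the smallest that 4 against 4 libraries can give, and 0.114 after Benjamini-Hochberg adjustment over the 4 share comparisons. Blood barcodes fell from 2.26% ± 0.708 to 0.861% ± 0.0786 and lymphatic barcodes from 0.782% ± 0.373 to 0.359% ± 0.0597, given as a description. Fibroblast barcodes, chosen by Col1a1 and Dcn, moved alongside, from 9.78% ± 2.85 to 4.30% ± 2.09. These are shares of cells recovered after a CD4 selection, and fewer vessel cells in the tissue cannot be told apart from fewer vessel cells coming through the kit. In blood barcodes the means of the selecting genes Plvap (2977 to 2011 CPM), Kdr (1206 to 705) and Flt1 (2386 to 2050) were lower after DSS. Those of Cdh5 (606 to 692 CPM) and Pecam1 (1060 to 1203) were higher. The part of these levels in the shares was not tested.

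The lymphatic share of endothelial barcodes showed no detectable shift, and the mix of arterial, capillary and venous cells was not tested. Lymphatic barcodes were 29.3% ± 2.42 of endothelial barcodes after DSS and 25.7% ± 7.33 without (exact permutation p = 0.4, adjusted p = 0.533), and the ranges overlapped. Mutant libraries held 2.54% ± 1.48 endothelial barcodes and wildtype libraries 1.73% ± 0.745 (exact permutation p = 0.4, adjusted p = 0.533). Within each treatment both mutant libraries lay above both wildtype ones. With labels permuted within treatments, a test added after these values were seen, the 2-sided exact p was 0.0556, the smallest that its 36 arrangements can give, and 0.111 after adjustment over the 2 genotype comparisons of shares. The lymphatic share was 28.0% ± 6.43 in mutant and 27.0% ± 5.14 in wildtype libraries (exact permutation p = 0.829).

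**Figure D2:**
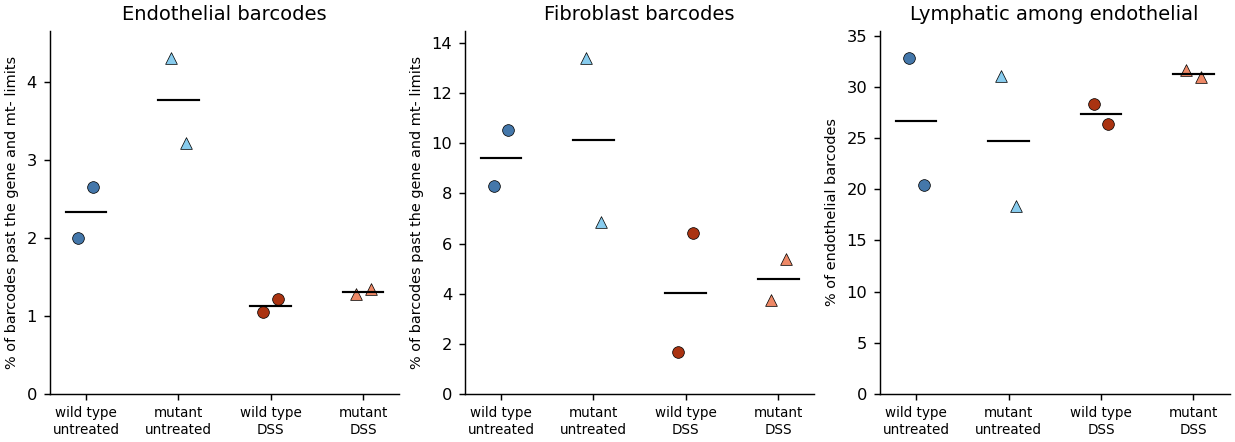
Endothelial and fibroblast barcodes as a percent of all barcodes past the limits, and lymphatic barcodes as a percent of endothelial barcodes; points are libraries and lines are group means. The 4 DSS libraries sit between 1.04% and 1.34% endothelial barcodes, below the untreated libraries at 2.00% to 4.31%.

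Clustering the 2002 barcodes gave 13 clusters, 2 of them lymphatic. DSS libraries held fewer members, so an even split between treatments is not the baseline for the percentages below. The mean per library was 152.75 endothelial barcodes after DSS and 347.75 untreated, and 45 and 89.5 for lymphatic barcodes. Untreated mutant 2 gave 354 of the 2002. The lymphatic-like clusters 3 and 4 held 256 and 242 barcodes and were both led by Ccl21a, Lyve1, Mmrn1 and Reln; 17.6% of the first and 51.7% of the second came from DSS libraries, and Lbp, a lipopolysaccharide-binding acute-phase protein, and Sema3a, a repellent guidance molecule, were among the leading genes of cluster 4. A venous-like cluster of 144 barcodes was led by Selp and Sele, the selectins on which leukocytes roll, with Ackr1, a chemokine-binding receptor of venules, and Madcam1, the gut-homing addressin. Cluster 2 (259 barcodes) was led by genes that include Gja5 and Sema3g, used by arteries, and Cxcl12 and Esm1. Cluster 8 (130 barcodes), led by Esm1 and holding Cxcl12 among its top genes, had 3.08% of its barcodes from DSS libraries and 46.9% from untreated mutant 2. Cluster 11 (73 barcodes), led by Selp, Rspo3, Csf3 and Vwf, had 86.3% from DSS libraries. Clusters 1, 6, 10 and 12 had pericyte or smooth muscle genes among their leading genes, such as Pdgfrb, Abcc9 or Acta2, cluster 5 had 0.342 times the median UMIs of its libraries and fibroblast genes, cluster 9 held plasma cell and leukocyte genes, and cluster 13 held the keratins. The genes that define clusters differ between treatments, so cluster sizes are no result, and no cluster other than the venous-like and lymphatic-like ones was named.

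Levels that tell blood from lymphatic barcodes are given with no test, since Prox1, Mmrn1 and Ccl21a chose the classes. Ccl21a averaged 15338 CPM in lymphatic barcodes, Mmrn1 5036 and Lyve1 4804. Fgl2, a fibrinogen-like secreted protein, was at 2995 CPM against 45.5 in blood barcodes, Reln (reelin) at 1419 against 0.2, the transcription factor Maf at 1350 against 36.1, and Flt4 at 1190 against 53.0. The tight-junction protein Cldn5 was at 969 CPM in lymphatic and 100 CPM in blood barcodes, and Nr2f2, the factor of venous and lymphatic identity, at 704 and 153 CPM. The leukocyte adhesion molecule Icam1 was also higher in lymphatic barcodes, 1303 against 652 CPM.

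Blood barcodes carried Plvap, the diaphragm protein of fenestrated capillaries, at 2494 CPM against 90.2 in lymphatic barcodes, and Flt1, a VEGF receptor, at 2218 against 28.7. Fabp4, a fatty acid carrier, was at 3917 against 166 CPM and Ly6c1 at 1683 against 18. Sgk1 was at 663 against 380 and Kitl, the ligand of the receptor Kit, at 389 against 10.8. These 4 are part of a longer capillary list, and Kitl was not among its 4 highest members in blood. Aqp1, another member, was at 272 CPM untreated and 652 CPM after DSS in blood, and at 669 and 513 CPM in lymphatic barcodes. The arterial genes given here were lower than those 4 in blood barcodes. Clu was at 304 CPM, Dll4, a Notch ligand, at 215, Efnb2 at 188 and Sox17 at 181. In lymphatic barcodes they were at 19.5, 90.0, 106 and 3.9 CPM. Stmn2, also on the arterial list, was at 94.9 CPM untreated and 114 CPM after DSS in blood, and at 355 and 85.6 CPM in lymphatic barcodes. How the remaining members of both lists stood is not given here. Among venous genes Selp was at 503 CPM, Vwf (von Willebrand factor) at 159, Madcam1 at 74.9 and Ackr1 at 68.2 in blood barcodes. In lymphatic barcodes Selp was at 82.1, Vwf at 1.9, and Ackr1 and Madcam1 at 0. The venous list also holds Icam1 and Nr2f2, both given above as higher in lymphatic barcodes. Emcn, another member, was at 509 CPM untreated and 306 CPM after DSS in blood, and at 365 and 460 CPM in lymphatic barcodes. Madcam1 and Ackr1 were thus not among the 4 highest of that list in blood.

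Levels summed over blood endothelial barcodes moved in several directions at once after DSS. The sums pool vessel subtypes. Cluster 8, led by Esm1, had 3.08% of its barcodes from DSS libraries, and cluster 11, led by Selp, Rspo3, Csf3 and Vwf, had 86.3%. DSS libraries held a mean of 107.75 blood barcodes and untreated libraries 258.25. The part of a changed subtype mix in the differences below was not tested. Ptgs2, the inducible prostaglandin synthase, rose 11.9-fold, and Tnfaip3, Plaur, Mcam and Vwf rose 2.35-fold to 2.82-fold. On the lists, 5 of 17 haemostasis genes and 3 of 16 NF-kB feedback genes were higher and 0 lower. The shear-stress factors Klf2 and Klf4 and the chemokine Cxcl12 fell, as did 4 of 30 interferon-response genes and 7 of 20 immediate early and heat shock genes, with 0 higher on those lists. Of 8218 genes tested with edgeR's quasi-likelihood test and Benjamini-Hochberg adjustment at 0.05, 192 (2.34% of all tested) differed between the 4 DSS and 4 untreated libraries, 110 higher (1.34%) and 82 lower (0.998%). In 152 of them (1.85% of all tested) the groups did not overlap. Over all genes tested, called or not, the groups did not overlap in 10.7%. The count rests on few libraries. It was 1 without DSS wildtype 2, 2 without untreated wildtype 2 and 2 without untreated mutant 2, 18 without untreated mutant 1, 39 without untreated wildtype 1, 74 without DSS mutant 2, 310 without DSS wildtype 1 and 416 without DSS mutant 1. Ptgs2 alone was called with each library left out in turn, and none of the 192 changed direction in those 8 fits. Each other blood gene below that is said to have risen or fallen lost its call in at least 1 of those fits. The higher calls include keratins and other squamous genes (Krt5, Krt14, Krt6a, Krt17, Lgals7, Gpx2), and 155 genes were called, 143 of them shared, when barcodes with squamous keratins were left out. Barcodes free of other lineages gave 159 calls, of which 71 were shared with the 192. Leaving out barcodes with mural UMIs gave 191, of which 83 were shared. Levels in blood barcodes free of other lineages are given below only for Ptgs2, Mcam, Crispld2 and Col18a1. For the other genes named they are not shown. The median log2 change over all genes tested was -0.002. Signs of other cells and of RNA quality moved with DSS too: the median mitochondrial share of blood barcodes was 2.24% to 2.58% untreated and 2.74% to 3.45% after DSS, and T cell genes summed to 54.9 to 141 CPM and 68.3 to 227 CPM. The 10 mast cell and platelet genes summed to 12.9 to 29.4 CPM untreated and 52.0 to 226 CPM after DSS, with no overlap. The receptor Kit (4.03 to 21.5 and 33.8 to 59.4 CPM) and the platelet chemokine Ppbp (0 to 6.20 and 0 to 143 CPM) made up most of the DSS sums, the mast cell genes Cpa3, Mcpt1, Mcpt2 and Fcer1a were at 0, and the 8 genes other than Kit and Ppbp summed to 7.26 to 17.5 CPM and 10.04 to 23.8 CPM. Their part in the changes was not tested.

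Ptgs2, which makes prostaglandin precursors on inflammatory signals, stood at 5.65, 4.62, 2.07 and 2.42 CPM in untreated wildtype 1 and 2 and mutant 1 and 2, and at 57.2, 69.3, 29.9 and 24.1 CPM in the DSS libraries in the same order. Every DSS library lay above every untreated one, and both wildtype DSS libraries lay above both mutant ones. Wildtype and mutant DSS libraries did not overlap in 34.6% of all genes tested. The log2 change was 3.57 ± 0.32 (SE; edgeR adjusted p = 0.00044), between 3.48 and 3.63 with any library left out. In blood barcodes with at most 2 UMIs of other lineages the level was 7.63 CPM untreated and 29.2 CPM after DSS.

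Haemostasis and vascular tone genes leaned upward: 5 of 17 tested were higher and 0 lower, with 14 of 17 log2 changes positive and a median of 0.49. Vwf, which tethers platelets and is stored in endothelial granules, was at 91.6, 98.8, 118 and 72.6 CPM in untreated libraries and 195, 242, 244 and 209 CPM after DSS. The groups were well apart (log2 change 1.23 ± 0.19, edgeR adjusted p = 0.0154). Plaur, the urokinase receptor, was at 45 ± 11.7 CPM untreated and 121 ± 24.9 CPM after DSS (SD, n = 4; log2 change 1.45 ± 0.22, edgeR adjusted p = 0.0154). Plat, tissue plasminogen activator, went from between 45.2 and 80.3 to between 104 and 263 CPM (log2 change 1.22 ± 0.27), and was named after its values were seen.

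Among genes of NF-kB feedback, which curb inflammatory signalling once it is on, 3 of 16 tested were higher and 0 lower, with 14 positive and a median of 0.37. Tnfaip3 (A20), the ubiquitin-editing brake on NF-kB, was at 116, 84.9, 82.6 and 76.7 CPM untreated and 187, 255, 337 and 227 CPM after DSS. It did not overlap between treatments and had a log2 change of 1.49 ± 0.19 (edgeR adjusted p = 0.00912). Tnfrsf1b, a TNF receptor, rose from 27.7 ± 4.42 to 58.0 ± 12.6 CPM. Nfkb1 rose from 183 ± 70.5 to 358 ± 97.2 CPM, with overlapping libraries, since untreated wildtype 1 was at 286 and DSS wildtype 1 at 255 CPM.

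The angiogenic tip cell list, of genes used by the leading cell of a sprout, split. Of 18 tested, 4 were higher (Mcam, Plaur, Angpt2, Cxcr4) and 1 lower (Esm1). Mcam, an adhesion molecule also made by pericytes, stood at 109, 83.1, 118 and 120 CPM untreated and 229, 313, 248 and 299 CPM after DSS (log2 change 1.37 ± 0.18, edgeR adjusted p = 0.00912); in the barcodes with at most 2 UMIs of other lineages it was at 91.6 and 293 CPM. Angpt2, the antagonist that loosens vessels for remodelling, was tight within groups, 14.8 to 19.97 CPM untreated and 37.6 to 45.7 CPM after DSS (log2 change 1.27 ± 0.23, edgeR adjusted p = 0.0254). Esm1, a secreted proteoglycan induced by VEGF, went the other way: 295, 324, 428 and 435 CPM untreated and 197, 67.3, 148 and 30.1 CPM after DSS, a log2 change of -1.75 ± 0.36 (edgeR adjusted p = 0.0339). Angpt2 was also the only 1 of 21 genes called on the VEGF, angiopoietin and Notch list, whose median was 0.13.

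The list of chemokines and cytokines split, with 2 of 16 higher, 2 lower and 12 not called. Csf3, the growth factor of neutrophils, was at 46.4, 37.9, 20.7 and 25.0 CPM untreated and 39.0, 194, 348 and 74.3 CPM after DSS, and Il6 at 73.5, 45.2, 51.0 and 42 CPM and 64.9, 202, 248 and 114 CPM. For both, DSS wildtype 1 stayed within the untreated range; the log2 changes were 2.37 ± 0.46 and 1.59 ± 0.32 (edgeR adjusted p = 0.0296 and 0.0331). Cxcl12, which binds Cxcr4 and retains leukocytes, was at 1378, 2531, 2128 and 3499 CPM untreated and 1226, 521, 978 and 470 CPM after DSS. It fell by 1.56 on the log2 scale (SE 0.30, edgeR adjusted p = 0.0296), while Cxcr4 went from 8.26 to 17 CPM untreated to 20.8 to 72.3 CPM after DSS. Tnfsf10 (TRAIL), a death ligand named after its values were seen, fell by 1.29 on the log2 scale (SE 0.27).

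No leukocyte adhesion molecule was called higher, which does not show that none rose. Of 16 tested, 0 were called higher and 2 lower. Over all genes tested, 1.34% were called higher and 0.998% lower, so a list of 16 would be likely to hold no higher call. Vcam1 ranged from 47.5 to 123 CPM untreated and from 110 to 253 CPM after DSS (log2 change 1.01 ± 0.26, edgeR adjusted p = 0.0671), and Icam1 from 437 to 573 CPM and from 531 to 1016 CPM (0.54 ± 0.15, edgeR adjusted p = 0.0773). Selp varied more within groups than between them, 603, 487, 164 and 235 CPM untreated and 470, 1010, 929 and 131 CPM after DSS (edgeR adjusted p = 0.239). Those 3 were chosen after their values were seen. The 2 lower genes were Jam3, a junctional adhesion molecule, from 103 ± 19.9 to 46.5 ± 16.8 CPM, and Emcn (endomucin), from 509 ± 89.3 to 306 ± 57.5 CPM.

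Interferon-response genes leaned downward without exception. All 30 genes tested had negative log2 changes, with a median of -0.79; 4 were called lower and 0 higher. Ifit2, an interferon-induced RNA-binding protein, stood at 70.1, 80.3, 59.9 and 68.6 CPM untreated and 39.0, 3.96, 19.3 and 6.02 CPM after DSS, a log2 change of -2.10 ± 0.39 (edgeR adjusted p = 0.0286). Isg15, a ubiquitin-like modifier, stood at 681, 662, 651 and 533 CPM and 353, 151, 337 and 183 CPM (log2 change -1.30 ± 0.25, edgeR adjusted p = 0.0296). Gbp7, a guanylate-binding protein, stood at 414, 513, 419 and 379 CPM and 249, 113, 214 and 76.3 CPM (log2 change -1.41 ± 0.28, edgeR adjusted p = 0.0331). For these 3 genes no DSS library reached an untreated one, and DSS wildtype 1 was the highest of the DSS libraries. Ifit3, another of the family, was at 79.1, 84.0, 75.7 and 71.0 CPM untreated and 70.1, 19.8, 21.1 and 8.03 CPM after DSS (log2 change -1.60 ± 0.32, edgeR adjusted p = 0.0322). DSS wildtype 1 was next to the lowest untreated library, and the groups overlapped once libraries were scaled by TMM.

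Promoter sequences of the 4 called interferon genes are shown because all 4 were called lower and because the factors that switch them on bind a known core sequence. RefSeq promoter windows (GRCm38.p6, 250 bases upstream of a start) were searched on both strands for GAAA followed by any 2 bases and GAAA, the core of the interferon-stimulated response element; overlapping matches were counted separately. Isg15 held 3 matches, Ifit3 2 and Gbp7 1, and both windows of Ifit2 held none. The motif was in 978 of all 32851 windows (2.98%), or 936 of 27025 genes (3.46%). It was in 14 of 23 matched genes of the 30 on the interferon list (60.9%), in 8 of 61 matched among the 82 genes called lower (13.1%) and in 4 of 76 matched among the 110 called higher (5.26%). A match describes the letters and does not show a bound site. Capitals mark the matches, on either strand.
Isg15, chr4:156200819-156201068, minus strand: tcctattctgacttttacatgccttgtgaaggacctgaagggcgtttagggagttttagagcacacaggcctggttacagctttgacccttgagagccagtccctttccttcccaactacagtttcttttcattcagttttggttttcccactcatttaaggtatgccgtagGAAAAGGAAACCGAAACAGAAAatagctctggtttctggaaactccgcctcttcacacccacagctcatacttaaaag
Ifit3, chr19:34583279-34583528, plus strand: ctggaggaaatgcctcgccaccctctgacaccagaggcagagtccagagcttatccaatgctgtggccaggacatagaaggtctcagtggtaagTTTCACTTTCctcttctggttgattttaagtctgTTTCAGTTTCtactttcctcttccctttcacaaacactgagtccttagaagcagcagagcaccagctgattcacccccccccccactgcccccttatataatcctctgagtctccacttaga
Gbp7, chr3:142530086-142530335, plus strand: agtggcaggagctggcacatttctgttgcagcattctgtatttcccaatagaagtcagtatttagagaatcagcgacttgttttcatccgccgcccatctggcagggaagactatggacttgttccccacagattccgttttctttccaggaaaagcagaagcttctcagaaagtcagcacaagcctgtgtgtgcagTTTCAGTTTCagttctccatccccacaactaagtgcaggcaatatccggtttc
Ifit2, window 1, chr19:34550444-34550693, plus strand: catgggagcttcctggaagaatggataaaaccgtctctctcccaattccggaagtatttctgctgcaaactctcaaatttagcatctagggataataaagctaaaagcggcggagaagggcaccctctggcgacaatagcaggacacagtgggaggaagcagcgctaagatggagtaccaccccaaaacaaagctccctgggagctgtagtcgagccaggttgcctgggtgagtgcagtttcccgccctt
Ifit2, window 2, chr19:34550838-34551087, plus strand: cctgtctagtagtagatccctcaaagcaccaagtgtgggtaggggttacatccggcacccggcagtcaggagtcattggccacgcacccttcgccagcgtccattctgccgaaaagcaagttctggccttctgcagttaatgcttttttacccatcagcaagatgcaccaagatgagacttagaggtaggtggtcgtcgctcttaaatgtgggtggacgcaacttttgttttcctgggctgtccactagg

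Antigen presentation genes leaned the same way, with 19 of 22 log2 changes negative, a median of -0.37, and 2 called lower and 0 higher. The called genes were the immunoproteasome subunits Psmb8, from 469 ± 113 to 225 ± 83.6 CPM, and Psmb10, from 162 ± 28.7 to 77.7 ± 24 CPM. B2m, the light chain of class I molecules, was at 2326 ± 176 CPM untreated and 2354 ± 201 CPM after DSS (log2 change 0.03 ± 0.12), and was chosen after its values were seen.

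On the endothelial transcription factor list 3 of 23 genes were lower and 0 higher, with 12 of 23 positive and a median of 0.01. Klf2, induced by laminar flow, was at 1417, 1974, 2137 and 2225 CPM untreated and 1138, 491, 1024 and 384 CPM after DSS, with no overlap (log2 change -1.34 ± 0.29, edgeR adjusted p = 0.0401). Its relative Klf4 went from 1597 ± 108 to 1013 ± 163 CPM (-0.65 ± 0.14) and Mef2c, which acts upstream of both in endothelium, from 693 ± 165 to 383 ± 54.7 CPM (-0.83 ± 0.17). On the immediate early and heat shock list 7 of 20 were lower (Jun, Egr1, Fos, Dnajb1, Btg2, Ier2, Jund), 0 higher, 18 negative, median -0.39. Jun went from 4488 ± 398 to 2458 ± 500 CPM, Egr1 from 4507 ± 444 to 2191 ± 668 CPM and Fos from 3836 ± 357 to 2036 ± 591 CPM. Summed over the list, blood barcodes held 40002 to 51989 CPM untreated and 20945 to 35532 CPM after DSS. Fibroblast barcodes moved alongside, at 37172 to 40597 CPM and 22025 to 27784 CPM, and T cell barcodes of the same libraries held 9205 to 20237 CPM and 9418 to 10782 CPM. What these cells share was not tested.

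Proliferation genes leaned upward at very low levels. All 17 cell cycle genes tested had positive log2 changes (median 0.55), 2 called. Rrm2 went from 1.37 ± 0.711 to 13.9 ± 8.70 CPM and Mcm5 from 3.62 ± 1.3 to 20.3 ± 12.0 CPM. Without the squamous barcodes Rrm2 was at 4.61 CPM and Mcm5 at 13.2 CPM after DSS. Myc, the growth-promoting transcription factor, was at 35.0, 16.6, 15.1 and 10.5 CPM untreated and 39.0, 49.5, 75.5 and 116 CPM after DSS (log2 change 1.86 ± 0.29, edgeR adjusted p = 0.0162).

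Transport, matrix and growth factor genes moved in a few members. The water channel Aqp1 rose from 272 ± 93.9 to 652 ± 193 CPM (log2 change 1.25 ± 0.23, edgeR adjusted p = 0.0254) and the glucose transporter Slc2a1 from 32.9 ± 11.5 to 73.6 ± 16.8 CPM, 2 of 18 called on the transport list. On the hypoxia and glycolysis list Slc2a1 was also the only call of 19. Col18a1, a basement membrane collagen, stood at 102, 121, 93.0 and 111 CPM untreated and 291, 357, 188 and 137 CPM after DSS (log2 change 1.12 ± 0.17, edgeR adjusted p = 0.0154), and Mgp, an inhibitor of calcification and BMP signals, rose from 68.3 ± 47.8 to 216 ± 85.0 CPM, so that 2 of 20 matrix genes were higher. Inhbb, an activin subunit, rose from 67.2 ± 31.6 to 241 ± 207 CPM with overlapping groups, the only call of 19 on the TGF-beta and BMP list. Pdgfa, which recruits mesenchymal cells, rose from 96.9 ± 15.6 to 189 ± 48.7 CPM. Cavin2, a caveolar coat protein, was the only call of 19 junction genes and fell by 0.97 on the log2 scale (SE 0.22).

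Some of the largest rises came with transcripts typical of other cells. Gpx2, an epithelial glutathione peroxidase, was at 0 to 0.689 CPM untreated and at 2.60, 154, 1.76 and 58.2 CPM after DSS; without the squamous barcodes its DSS mean was 0.649 CPM in place of 54.3. Crispld2 rose from 22.1 ± 7.92 to 61.6 ± 20.9 CPM, but in barcodes with at most 2 UMIs of other lineages it was at 2.81 CPM untreated and 2.65 CPM after DSS. Il22 and Ctla4, used by T cells, were also among the higher calls and were noted after the calls were seen. The other largest rises were Fkbp5 (13.7 ± 3.68 to 57.3 ± 33.3 CPM), a glucocorticoid-induced chaperone partner, the protease Ctsc (18.5 ± 8.33 to 56.7 ± 7.71 CPM) and the non-coding Snhg6 (17.6 ± 5.46 to 50.9 ± 16.2 CPM). The other largest falls were the interferon-inducible GTPases Tgtp2 (54.2 ± 8.30 to 16.9 ± 7.82 CPM) and Gm4951 (82.6 ± 10.2 to 31.1 ± 11.8 CPM), and Ptprr (120 ± 29.1 to 44.6 ± 27.2 CPM). Reads of near-identical copies (Tgtp1 and Tgtp2, the Gbp and Ifit families, the Serpina3 family) may have been split between them in the authors' counting.

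**Figure D3:**
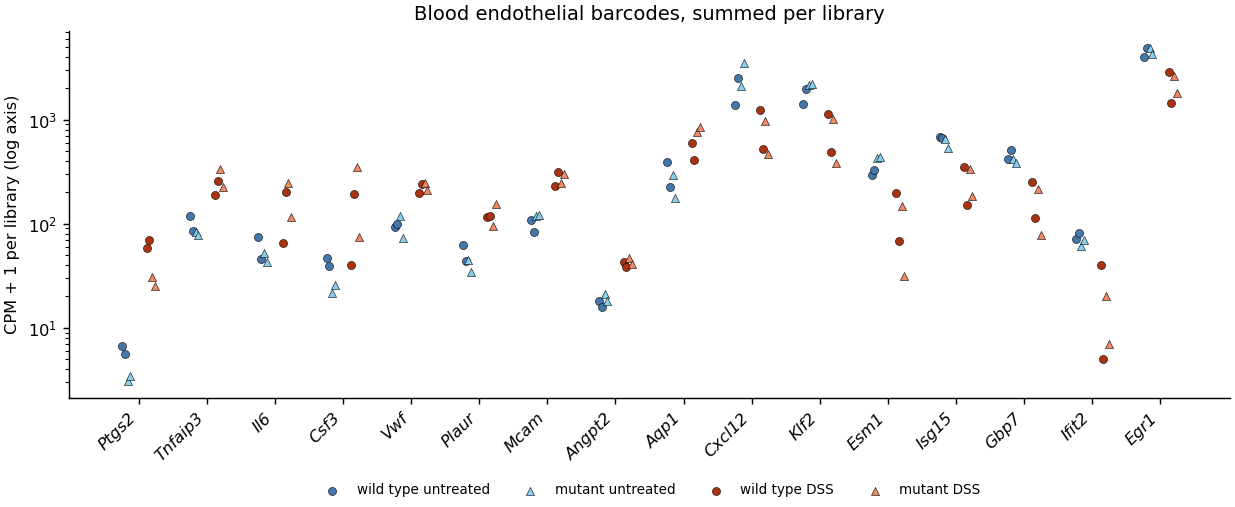
Levels of 16 named genes in blood endothelial barcodes (CPM + 1, log axis), 1 point per library, blue untreated and red DSS, circles wildtype and triangles mutant. Ptgs2 and Vwf sit higher in all 4 DSS libraries and Isg15, Klf2 and Cxcl12 lower, while Il6 and Csf3 overlap.

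Within each genotype the 2 against 2 comparison called few genes in the main fit. More were called in both genotypes without the filter on low counts. The wildtype count also moved with the library left out, as the closing section gives. Wildtype blood barcodes had 1 call of 8218 (0.0122%), Ptgs2, with a log2 change of 3.59 ± 0.41 (edgeR adjusted p = 0.00695). It was called in 5 of the 8 fits that left out a library. Mutant barcodes had 27 (0.329%), 19 higher (0.231%) and 8 lower (0.0973%), with Ptgs2 at 3.55 ± 0.49, Myc at 2.91 ± 0.39, Cxcr4 at 2.57 ± 0.48, Tnfaip3 at 1.86 ± 0.27, Slc2a1 at 1.82 ± 0.31, Aqp1 at 1.82 ± 0.32, Pdlim1 at 1.76 ± 0.33 and Plaur at 1.73 ± 0.31. The lower genes were led by Kctd12b (-1.72 ± 0.31) and included Cd24a (-1.32 ± 0.23). The mutant count was 0 without untreated mutant 1, 1 without untreated mutant 2, untreated wildtype 1 or untreated wildtype 2, 17 without DSS mutant 2, and 52, 53 and 158 without DSS wildtype 1, DSS wildtype 2 and DSS mutant 1. At unadjusted p under 0.05 there were 883 genes in wildtype and 1409 in mutant. A larger count in 1 genotype is not a difference between them: the test of that difference, the interaction of DSS and genotype, called 0 of 8218 genes (0%; smallest edgeR adjusted p = 0.745; 518 at unadjusted p under 0.05; DESeq2 called 1). On the interferon list 0 of 30 genes were called in either genotype; 30 of 30 log2 changes were negative in wildtype (median -0.82) and 29 of 30 in mutant (median -0.82).

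In the fits given here, few or no genes passed the threshold between genotypes in blood barcodes. Without the filter on low counts more were called, with the counts in the closing section on processing. Mutant against wildtype gave 0 of 8218 calls untreated (0%; edgeR, smallest adjusted p = 0.999, 257 at unadjusted p under 0.05; DESeq2 called 1) and 0 after DSS (0%; edgeR, smallest adjusted p = 0.844, 461 at unadjusted p under 0.05). The lowest p values untreated belonged to Rnf19b, a ubiquitin ligase, at 185 and 177 CPM in wildtype and 107 and 99.2 CPM in mutant libraries, and to Sele, at 44.1 and 78.5 CPM against 10.3 and 15.3 CPM. Ccl5 (80.3 and 12.0 against 6.89 and 2.42 CPM) and Sdc4 (109 and 54.5 against 35.1 and 31.5 CPM) followed. After DSS the lowest were Hhip, at 28.6 and 45.6 against 8.78 and 2.01 CPM, Ifi27l2a, at 210 and 95.1 against 52.7 and 20.1 CPM, Vtn, at 23.4 and 21.8 against 75.5 and 66.3 CPM, and Gpx3, at 59.8 and 89.1 against 141 and 221 CPM. Rnf19b had the lowest p for the interaction as well: after DSS it stood at 161 and 162 CPM in wildtype and 269 and 263 CPM in mutant libraries, the reverse of its untreated order (log2 1.59 ± 0.30, edgeR adjusted p = 0.745). With libraries of neighbouring title numbers as a block, a pairing tried after the data were seen, edgeR called 0 genes untreated, 0 for the interaction and 4 after DSS. Those 4 were the haemoglobin genes Hba-a1 and Hba-a2, which are near-identical copies made by red blood cells, Ifi27l2a, an interferon-induced gene (log2 change -2.08, edgeR adjusted p = 0.00749), all lower in mutant libraries, and Lpl, lipoprotein lipase, higher at 38.6 and 187 against 10.4 and 19.8 CPM (2.92, edgeR adjusted p = 0.0136). Hba-a1 was at 1299 and 1394 CPM in wildtype and 307 and 408 CPM in mutant libraries after DSS (-1.92, edgeR adjusted p = 0.00749).

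Fibroblast barcodes of the same libraries served to ask which DSS changes differed between these stromal cells and blood endothelium. With each library as a block, 157 of 10380 genes (1.51%) had a different DSS effect, 74 with a higher change in blood (0.713%) and 83 with a lower one (0.8%). The count was 69 without untreated mutant 1, 78 without untreated mutant 2 and 84 without untreated wildtype 2. It was 95 without DSS wildtype 2 or DSS mutant 2, and 51 of the 157 were called in all 8 such fits. Abcc9 and Kcnj8, on the pericyte and smooth muscle list, are among the 51. Mural UMIs were in 54.7% to 79.2% of blood barcodes per library. Counts without such barcodes are not given for this comparison, so not every difference need be endothelial. The selecting gene Kdr, which the choice of both classes used, is counted among the lower calls and among the 51, and nothing is read from it. Cxcl12 fell in blood endothelium but was at 1381 CPM untreated and 1446 CPM after DSS in fibroblasts (log2 difference -1.67 ± 0.32, edgeR adjusted p = 0.0135). Igfbp3, a binder of insulin-like growth factors, was at 485 ± 230 and 998 ± 322 CPM in blood and 522 and 142 CPM in fibroblast barcodes (difference 3.01 ± 0.32, edgeR adjusted p = 0.000166). Igfbp5, another such binder, was at 184 ± 30.9 and 160 ± 54.9 CPM in blood and 959 and 3595 CPM in fibroblasts (difference -2.14 ± 0.21). These 3 were called in all 8 fits.

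Of the other vessel genes, Cav1, the caveolar scaffold, had a difference of 1.39 ± 0.18 and Mef2c one of -1.14 ± 0.22. Angpt2 had one of 2.76 ± 0.54, and Csf3, at 1 CPM untreated and 120 CPM after DSS in fibroblasts, one of -4.44 ± 0.83. Cav1 and Mef2c kept their calls with any library left out, and Angpt2 and Csf3 lost theirs in at least 1 such fit. On the interferon list 0 of 30 genes had a different effect, with 17 negative and a median of -0.13, and 0 of 22 did on the TGF-beta and BMP list. The changes of interferon genes were therefore not shown to differ between blood endothelium and fibroblasts.

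In lymphatic barcodes, the protease inhibitor Serpina3n, the peroxidase Gpx3 and the complement gene C3 had some of the largest rises after DSS, and Stmn2 and Cd2 fell. Of 6124 genes tested, 80 differed (1.31%), 40 higher (0.653%) and 40 lower (0.653%), and in 78 (1.27%) the groups did not overlap. Over all genes tested, called or not, the groups did not overlap in 9.70%. Serpina3n rose 20.3-fold, Gpx3 12.0-fold and C3 6.46-fold. Stmn2 fell 4.21-fold and Cd2 6.13-fold. The count was 29 to 49 without DSS wildtype 2, untreated mutant 1, untreated mutant 2, untreated wildtype 2, DSS mutant 2 or DSS wildtype 1, and 161 and 164 without untreated wildtype 1 and DSS mutant 1. In all 8 such fits 18 genes were called, and no called gene changed direction. Summed fibroblast and T cell markers separated the treatments only with C3 and Cd2 counted in. The 14 fibroblast genes summed to 150 to 346 CPM untreated and 425 to 847 CPM after DSS, but C3 is one of them, and the other 13 summed to 74.2 to 284 CPM and 0 to 136 CPM. The 12 T cell genes, with Cd8a at 0 in every library, summed to 130 to 190.0 CPM and 41.0 to 100.3 CPM; without Cd2 the other 11 summed to 39.8 to 97.1 CPM and 34.2 to 70.5 CPM. The median mitochondrial share of lymphatic barcodes was 1.54% to 1.99% untreated and 1.91% to 2.30% after DSS. Barcodes with UMIs of other lineages made up 45.2% of the lymphatic barcodes of DSS mutant 1 and 4.65% to 23% of those of the other 7 libraries. In lymphatic barcodes free of other lineages 115 genes were called, 75 of them among the 80, and the means untreated and after DSS were 41.0 and 890.1 CPM for Serpina3n, 82.3 and 1007 CPM for Gpx3, 108 and 596 CPM for C3 and 101 and 15.1 CPM for Cd2. The part of the mitochondrial share in these changes was not tested.

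Serpina3n, a secreted protease inhibitor, stood at 33.5, 24.4, 60.1 and 56.5 CPM in untreated lymphatic barcodes and 478, 841, 572 and 1719 CPM after DSS, a log2 change of 4.34 ± 0.35 (edgeR adjusted p = 2.83e-05). Every DSS library lay far above every untreated one. Gpx3, the extracellular glutathione peroxidase, was at 40.6, 70.9, 55.3 and 149 CPM and 417, 863, 789 and 1693 CPM (3.58 ± 0.36). C3, the central complement protein, was at 75.9, 62.0, 93.1 and 172 CPM and 847, 425, 564 and 705 CPM (2.69 ± 0.26). Untreated mutant 2 was the highest untreated library for Gpx3 and C3, and still lay below all DSS libraries. Car4, a membrane carbonic anhydrase of capillaries, went from 0 to 7.70 CPM untreated to 56.4 to 232 CPM after DSS (5.15 ± 0.58). The zinc importer Slc39a14, the metalloreductase Steap4 and the aggrecanase Adamts5 had log2 changes of 2.95 ± 0.36, 3.85 ± 0.47 and 3.61 ± 0.46. All 7 were called with any library left out. Itih3, a hyaluronan-binding plasma protein, had one of 2.36 ± 0.47 and was called in 5 of 8 such fits.

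Lcn2, Lrg1, Lbp and Sema3a were also among the 40 higher calls and are named after their values were seen. Lcn2, which withholds iron from bacteria, went from a mean of 973 to 2405 CPM, Lrg1 from 269 to 711 CPM and Lbp from 313 to 766 CPM. Sema3a rose from 117 to 570 CPM. Lrg1 and Sema3a kept their calls with any library left out, and Lcn2 and Lbp lost theirs in at least 1 such fit. Of the genes on the pathway lists, Tnfaip3 rose from 95.0 ± 34.3 to 253 ± 66.4 CPM and the receptor Tnfrsf1a from 84.7 ± 12.7 to 174 ± 16.9 CPM, 2 of 14 on the NF-kB feedback list (11 positive, median 0.59). The endothelin receptor Ednrb rose from 74.3 ± 27.7 to 215 ± 90.4 CPM, the hypoxia-responsive factor Epas1 from 101 ± 19.5 to 207 ± 38.5 CPM and Zfp36, which destabilises cytokine messages, from 430 ± 185 to 1045 ± 204 CPM. These 5 list genes were called in 2 to 4 of the 8 fits with a library left out.

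Among the falls, Stmn2, a microtubule-binding protein best known in neurons, was at 284, 385, 356 and 395 CPM untreated and 82.0, 126, 78.6 and 55.9 CPM after DSS (log2 change -2.08 ± 0.22, edgeR adjusted p = 0.00018). Cd2, an adhesion receptor of T cells, was at 88.3, 117, 90.2 and 97.6 CPM and 6.83, 17.3, 29.8 and 4.30 CPM (-2.62 ± 0.37, edgeR adjusted p = 0.00232). T cell barcodes held Cd2 at 398 CPM, Trac at 357 CPM and Trbc2 at 878 CPM, while lymphatic barcodes held Trac at 0 to 10.3 CPM and Trbc2 at 0 to 17.7 CPM over the 8 libraries. The growth factor Ptn fell by 2.84 on the log2 scale (SE 0.53), Rbp7, a retinol-binding protein, by 2.25 (SE 0.40), Tppp3, a tubulin-binding protein, by 2.01 (SE 0.36) and Igfbp3 by 1.97 (SE 0.34). Rbp7 lost its call without DSS wildtype 2 and Igfbp3 without DSS wildtype 1. Hspb1, a small heat shock protein, was at 1132 to 3215 CPM and 182 to 963 CPM (-2.06 ± 0.43, called in 4 of 8 fits with a library left out).

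Other lists held few or no calls in lymphatic barcodes. The class II genes H2-Eb1 and H2-Ab1 fell, H2-Eb1 from 346 ± 46.6 to 158 ± 49.6 CPM and H2-Ab1 from 408 ± 92.9 to 191 ± 73.5 CPM, 2 of 22 on the antigen presentation list (18 negative, median -0.40); they were called in 6 and 2 of the 8 fits with a library left out. Col18a1 fell from 484 ± 73.3 to 218 ± 81.7 CPM, Cav1 from 969 ± 166 to 524 ± 76.0 CPM and Klf2 from 1929 ± 491 to 983 ± 221 CPM, and Slc9a3r2, a scaffold of membrane transporters, from 446 ± 69.7 to 251 ± 38.0 CPM. Klf2 was called in 4 of those 8 fits and the other 3 in 2. On the interferon list 0 of 28 were called, with 24 negative and a median of -0.57; its 2 highest members, Ifitm3 and Ifitm2, were at 4558 ± 273 and 1157 ± 68.8 CPM untreated and 4173 ± 887 and 1861 ± 403 CPM after DSS. The chemokine, leukocyte adhesion, VEGF, TGF-beta, hypoxia and cell cycle lists had 0 called of 13, 12, 14, 15, 16 and 7. Icam1 was at 1123 ± 263 and 1483 ± 153 CPM, Flt4 at 1051 ± 83.6 and 1328 ± 173 CPM, Ccl2, a monocyte chemokine, at 118 ± 60.2 and 211 ± 123 CPM, and Ltbp4 at 1263 ± 149 and 863 ± 94.8 CPM.

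**Figure D4:**
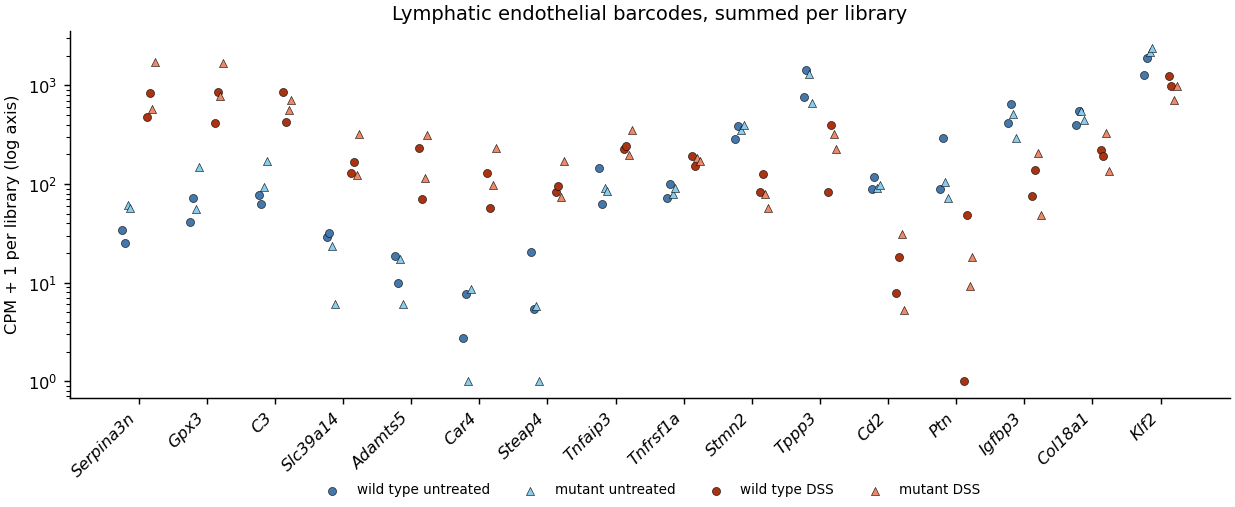
Levels of 16 named genes in lymphatic endothelial barcodes (CPM + 1, log axis), 1 point per library, blue untreated and red DSS, circles wildtype and triangles mutant. Serpina3n, C3 and Gpx3 sit higher in all 4 DSS libraries and Stmn2 and Cd2 lower, with no overlap.

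Blood and lymphatic barcodes shared 14 of their calls, 7.29% of the 192 in blood and 17.5% of the 80 in lymphatic barcodes. Of the 192, 130 were tested in lymphatic barcodes, and of the 80, 70 were tested in blood, so the rest could not be shared. Of the 14, 13 went the same way: among them Klf2 fell and Tnfaip3, Fkbp5, Gpx3, Lrg1, Serpina3n and Steap4 rose in both. The classes come from the same libraries, so shared calls are not independent. The exception was Col18a1.

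Whether DSS acted differently on the vessel types was tested directly, an analysis added after the calls of each class were seen. It called 24 of 7202 genes (0.333%), 13 with a higher change in blood (0.181%) and 11 with a lower one (0.153%); 800 genes had unadjusted p under 0.05. The count was 15 without untreated wildtype 2 and 46 without DSS mutant 1, and 11 of the 24 were called with any library left out. The selecting gene Kdr is counted among the 24, on the lower side, and nothing is read from it. Car4 had the lowest p: it was at 61.3 ± 11 and 50.6 ± 23.7 CPM in blood and 4.03 ± 3.73 and 129 ± 75.0 CPM in lymphatic barcodes, so that lymphatic barcodes went from far below to above blood (difference -5.57 ± 0.47, edgeR adjusted p = 3.94e-06). Gpx3 rose less in blood, from 54.8 ± 4.0 to 128 ± 70.6 CPM (difference -2.42 ± 0.30, edgeR adjusted p = 0.000629), and Chst15, a sulfotransferase of chondroitin chains, fell in blood from 117 ± 21.4 to 55.5 ± 3.14 CPM while lymphatic barcodes had 152 ± 32.4 and 228 ± 65.2 CPM (difference -1.57 ± 0.24).

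Igfbp3 was at 467 ± 149 CPM untreated and 116 ± 69.6 CPM after DSS in lymphatic and at 485 ± 230 and 998 ± 322 CPM in blood barcodes (difference 3.06 ± 0.47, edgeR adjusted p = 0.00403). Stmn2 was at 94.9 ± 29.5 and 114 ± 56.9 CPM in blood (difference 2.32 ± 0.31), Cd2 at 7.54 ± 3.87 and 14.8 ± 7.49 CPM (3.63 ± 0.54) and Aqp1 at 669 ± 58.0 and 513 ± 291 CPM in lymphatic barcodes (1.84 ± 0.32). Egr1 was at 2902 ± 428 and 3229.9 ± 629.7 CPM in lymphatic barcodes while it fell in blood (difference -1.19 ± 0.19, edgeR adjusted p = 0.00678), and lost that call without untreated wildtype 2. The interferon list had 0 of 30 different, with 24 negative and a median of -0.46. The immediate early list had 1 of 20 (Egr1) and a median of -0.45.

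Between genotypes, lymphatic barcodes had 0 of 6124 calls over both treatments (0%; edgeR, smallest adjusted p = 1, 193 at unadjusted p under 0.05; DESeq2 called 0). The lowest p values belonged to Sele, Vcam1, Gm14964 and Csf3. Sele was at 56.5 CPM in untreated wildtype 1, 27.3 and 39.0 CPM in the DSS wildtype libraries and 0 in the other 5. With neighbouring title numbers as a block, 4 genes were called lower in mutant libraries by edgeR: Csf3, Selp, Vcam1 and Sele. Vcam1 went the other way in 1 pair, at 20.5 CPM in DSS wildtype 1 and 29.8 CPM in DSS mutant 1. Csf3 was at 131 CPM in untreated wildtype 1 and 117 CPM in DSS wildtype 2, at 38.7 CPM in DSS mutant 2, at no more than 8.86 CPM in the other 5 libraries, and at 0 in both libraries numbered 1 after DSS.

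**Figure D5:**
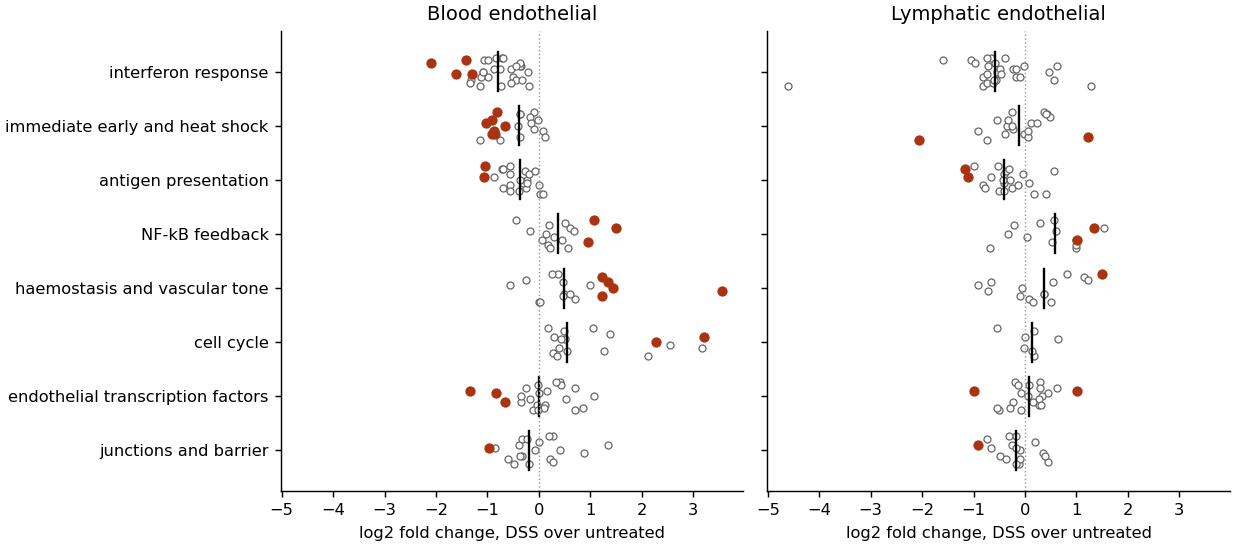
Log2 change after DSS of the tested members of 8 pathway lists in blood and lymphatic barcodes, 1 point per gene, with called genes in red and the list median as a bar. All 30 interferon genes lie below 0 in blood (median -0.79) and 24 of 28 in lymphatic barcodes (median -0.57).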

How the data were processed

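The authors deposited 8 tables of UMI counts per gene and barcode, 1 per library, which per the submitters' processing notes came from Cell Ranger 3.1.0 and the mm10 build, with Seurat 4.0.1 used downstream. The tables hold 31053 gene rows; 1 has gene IDs and 7 have row numbers with symbols, 98.5% of the IDs had the same symbol in the reference table, and 36 rows repeat a symbol. All barcodes were used, not only those the authors kept. Members and gene lists were chosen with earlier results of these data known.

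Counts were summed per library and class and tested with edgeR 4.0.16 (quasi-likelihood, filterByExpr, TMM, 1 mean per group, Benjamini-Hochberg at 0.05) in R 4.3.3. Groups were said to overlap or not on TMM-scaled values. Differences between classes were tested with each library as a block. The test between blood and lymphatic barcodes, the runs without squamous or mural barcodes, a block of wildtype and mutant libraries with neighbouring title numbers and the permutation of genotypes within treatments were added after seeing the data. Shares were compared by exact permutation tests, which ran through every arrangement of the library labels that each test allows. Barcodes were clustered with scanpy 1.11.5 and leidenalg 0.10.2 (2000 variable genes, 20 components, 15 neighbours, resolution 0.8). No doublet caller was run, so a barcode with genes of several cell types can be a doublet. Fibroblast barcodes held at least 6 UMIs over Col1a1 and Dcn and at most 1 of the 5 selecting genes, and T cell barcodes at least 2 over Cd3e, Cd3d and Cd3g. Barcodes were called free of other lineages when they held at most 2 UMIs over 12 genes (Ptprc, Cd79a, Jchain, Lyz2, S100a8, Epcam, Krt8, Krt14, S100b, Col3a1, Rgs5, Acta2).

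Genes named are the 8 largest rises and falls among called genes with at least 50 CPM in the higher group and no overlap. Also named are up to 3 called genes per pathway list by p, and the 4 lowest p where nothing was called. The rule also names the 2 highest members of lists with no call and the 4 highest of each endothelial marker list. For the pan-endothelial, capillary and venous lists, the members given are not all among the 4 highest. This rule left out selecting, mitochondrial, immunoglobulin, haemoglobin and sex-linked genes. Some genes were named outside the rule, among them the haemoglobin genes called in the block fit. Some items the rule names, and the mutated gene, are not reported here. Alternatives were DESeq2 1.42.0, other scaling, no filter on low counts, stricter barcode limits and leaving out each library in turn. On simulated counts, 66.7% of 96 genes changed by a log2 of 1 and 97.9% of 97 changed by 2 were recovered among 8135 blood genes, and 38.0% of 92 and 95.6% of 91 among 6053 lymphatic genes. The simulation gave every gene of a class the same spread and tested only 4 against 4 libraries. These recovered shares therefore do not describe the genotype comparisons or genes with more spread. The limit from a count of 0 (3 counts) covers counting error only. Values after ± are SDs over libraries or SEs of log2 changes, and both include spread between libraries. Each SE was worked out as the absolute log2 change divided by the square root of edgeR's F statistic, since the test gives none itself.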

Additional observations from a re-analysis of the deposited data

Results flagged for a closer look

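Col18a1, the precursor of endostatin, moved in opposite directions in the vessel types after DSS, and the difference itself was tested. It was at 107 CPM untreated and 243 CPM after DSS in blood barcodes (log2 change 1.12, edgeR adjusted p = 0.0154), and at 484 and 218 CPM in lymphatic barcodes (-1.18, edgeR adjusted p = 0.0307). The difference was 2.32 (SE 0.29, edgeR adjusted p = 0.000629) and was called with each library left out in turn. In blood barcodes free of other lineages Col18a1 was at 12.7 CPM untreated and 217 CPM after DSS.

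Pdlim1, a protein of actin stress fibres, differed between blood endothelial and fibroblast barcodes. It was at 241 and 573 CPM in blood (log2 change 1.28, edgeR adjusted p = 0.0249) and at 102 and 69.3 CPM in fibroblast barcodes (-0.52, edgeR adjusted p = 0.0327), a difference of 1.84 (SE 0.24, edgeR adjusted p = 0.000771).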

How the results depend on the processing

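Without a filter on low counts the calls after DSS were 765 in blood (192 with it), 244 in wildtype blood (1), 492 in mutant blood (27) and 249 in lymphatic barcodes (80). The genotype comparisons then had 31 calls untreated, 39 after DSS, 26 for the interaction and 14 in lymphatic barcodes (0 each with the filter), and the differences between classes 443 against fibroblasts (157) and 167 between blood and lymphatic barcodes (24). A sum of at least 8 over the 5 selecting genes gave 98 calls in blood, 0 in wildtype, 8 in mutant and 28 in lymphatic barcodes. DESeq2 gave 18 in wildtype, 79 in mutant, 57 between blood and lymphatic barcodes, and 1 each for genotype untreated and the interaction. Wildtype blood had 11 calls without barcodes holding other lineages, 4 without mural barcodes and 6 when only the groups compared were fitted; mutant blood had 51 in that fit and 5 with mitochondrial shares under 10%. The cause of these shifts was not tested.

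With each library left out in turn, calls ranged from 1 to 416 in blood, 0 to 53 in wildtype, 0 to 158 in mutant, 0 to 1 for genotype untreated, 0 to 3 after DSS, 0 to 1 for the interaction, 29 to 164 in lymphatic barcodes, 0 to 2 for genotype there, 69 to 176 against fibroblasts and 15 to 46 between blood and lymphatic barcodes. The log2 difference in endothelial share ranged from -1.45 to -1.08 for DSS and 0.13 to 0.72 for genotype, and that in lymphatic share from 0.09 to 0.37 and from -0.09 to 0.23. The log2 difference in lymphatic share of endothelial barcodes, mutant against wildtype, was 0.04 in all libraries, -0.10 without barcodes holding other lineages, -0.0882 without untreated wildtype 2, -0.02 without untreated mutant 1 or DSS mutant 2 and -0.03 without DSS mutant 1. Cyp4b1, with a difference of 2.20 between blood and lymphatic barcodes, had -2.97 without barcodes holding other lineages and -3.17 without mural barcodes. Of 2370 alternatives over 157 single-gene results, those 2 turned the direction, 481 with a library left out and 143 others lost a call, and 2 and 17 gained one. DESeq2 shared 110 of the 192 blood calls and 65 of the 80 lymphatic ones.

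The library numbers used here come from accession order. Within a treatment, wildtype and mutant libraries of the same number also have neighbouring numbers in their titles. The labels do not say what those numbers mark. Deviations of such pairs correlated at 0.15 untreated and 0.26 after DSS in blood barcodes and at 0.09 and 0.08 in lymphatic barcodes, across genes. With the pairs as a block, calls between genotypes went from 0 to 4 after DSS in blood and from 0 to 4 in lymphatic barcodes, and stayed at 0 untreated and for the interaction. Pairs lie within a treatment, so the block could not be used for DSS. With 2 libraries a group and lymphatic sums as small as 146412 UMIs, smaller changes of low genes can be missed.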
